A study of Mus musculus with 9 samples.

Results

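Solute carriers are membrane proteins that move amino acids, sugars, ions, metals, nucleotides, lipids and transmitters across the plasma membrane, across vesicles and lysosomes, or across the inner mitochondrial membrane. Their genes carry the symbol Slc followed by a family number, a letter and a member number, and the members of a family usually share a substrate. In the hippocampus, vesicular and plasma membrane carriers load and clear glutamate and GABA. Carriers of endothelium and glia bring in glucose, lactate, amino acids and nutrients, and lysosomal and mitochondrial carriers connect these pools inside the cell. Solute carriers with this symbol pattern were taken from a count table of mouse hippocampus after the rows of each gene had been summed, except 9 genes left out by name (Slc1a2, Slc1a3, Slc6a11, Slc40a1, Slc39a14, Slc7a11, Slc2a1, Slc22a6 and Slc10a6). Of the 355 genes that fit the pattern in a table of 38911 genes, the 120 with a mean of at least 10 counts over the 6 libraries labelled sham and CLP are described here. The 3 members just inside this minimum were Slc25a51 (mean 10), Slc37a1 (10.67) and Slc16a11 (11), and the 3 genes just outside were Slc35f3 (9.67), Slc6a9 (9.33) and Slc27a5 (9).

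The study used healthy adult BALB/c mice in 3 groups of 3. A sham operation was given to the group named CTL, the cecal ligation operation that provokes abdominal sepsis (abbreviated CLP) to the group named SAE, and CLP together with 200 mg/kg of Cuscuta chinensis flavonoids to the group named CCLF. The series title names sepsis-associated encephalopathy, so the comparison asks how transporter expression differs between septic and sham-operated hippocampus. Total RNA of the hippocampus was depleted of ribosomal RNA and sequenced in 1 library per sample, and whole-number counts per transcript were deposited for 9 libraries of 4626519 to 4895474 counts each.

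The labels were checked on genes that respond to inflammation, and the data ran opposite to what such labels usually give. Lcn2, an acute-phase gene, had 13816, 14822 and 13246 counts in the libraries labelled sham and 13, 14 and 6 in those labelled CLP. Icam1, an adhesion receptor of activated endothelium, had 1339, 1498 and 1135 against 45, 48 and 34, and Gfap, an astrocyte filament gene, 122, 143 and 117 against 19, 11 and 25. P2ry13, a receptor gene of resting microglia, ran the other way with 12, 19 and 22 against 223, 192 and 238 counts. Each direction given here is therefore that between the libraries labelled CLP and the libraries labelled sham, and whether the labels are exchanged was not tested. The labels describe the samples of a group as biological duplications and do not name single animals, so the p-values measure the spread between these libraries.

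The libraries labelled CLP plus extract stood apart in another way. Over the 120 members, the variance among the 3 libraries divided by the mean count had a median of 0.424 in the group labelled CLP plus extract, against 1.362 in that labelled sham and 1.234 in that labelled CLP, where counting alone gives a median of 0.693. This ratio was under 0.1 in 24.2% of members with the extract label, 3.3% with the sham label and 8.3% with the CLP label, and counting alone gives 9.5%. For 115 of the 120 members (95.8%) all 3 extract-labelled values lay inside the range of the 6 other libraries, as for 95.3% of 8011 genes with a mean of at least 10 counts. What gives this pattern was not tested. The main comparison below uses the 6 other libraries alone, which are also those over which the count minimum was taken.

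The transporters differed in both directions and to about the same extent as other genes. All members but Slc25a51 passed the filter on low counts. Of these 119 members, tested with edgeR's quasi-likelihood F test, 30 had higher and 26 had lower counts with the CLP label at a Benjamini-Hochberg adjusted p under 0.05, taken over all 8213 genes tested. That is 47.1% of the members, beside 47.6% of all tested genes called in either direction, 23.7% called higher and 23.9% called lower. The median log2 fold of the members was 0.04, beside 0.005 for all tested genes, and the median size of the log2 fold was 0.362 beside 0.366. Among the members, 8 were called and over 2-fold higher and 9 were called and over 2-fold lower, where 16.5% of all tested genes were called and over 2-fold either way. The groups did not overlap in 66 members (55.5%), beside 55.7% of all tested genes. Log2 folds are given as CLP label minus sham label ± an approximate standard error (SE), with n = 3 libraries in each group.

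By substrate, amino acid and peptide carriers divided evenly into higher and lower genes, sugar and monocarboxylate carriers held no higher gene, and carriers of transmitters, metals and inorganic ions held more higher than lower genes. Of 18 amino acid and peptide carriers 6 were higher and 6 lower (median log2 fold 0.31). Of 16 sugar and monocarboxylate carriers 0 were higher and 5 lower (median -0.28). Among 7 transmitter carriers 4 were higher and 1 lower (median 0.45), among 13 metal and haem carriers 5 and 3 (median 0.16), and among 15 carriers of inorganic ions 4 and 1 (median 0.02). Mitochondrial carriers had 4 higher and 4 lower of 20 tested (median -0.05), nucleoside and nucleotide sugar carriers 3 and 3 of 18 (median 0.05), and carriers of lipids, vitamins and organic ions 4 and 3 of 12 (median 0.11). Beside these counts, 23.7% of all tested genes were called higher and 23.9% lower, 47.6% in either direction. The called share was under this for sugar and monocarboxylate (31.2%), inorganic ion (33.3%), nucleotide sugar (33.3%) and mitochondrial carriers (40%). It was above this for transmitter (71.4%), amino acid (66.7%), metal (61.5%) and organic carriers (58.3%). None of the classes was tested as a set, and leaving out single libraries moved several of these small counts. Inorganic ions gave 2 higher without the second library labelled sham or the third labelled CLP, 0 lower without the second labelled sham or the second or the third labelled CLP, and 2 lower without the third labelled sham. Sugars and monocarboxylates gave 3 lower without the first labelled CLP, 1 higher without the second labelled sham and 2 higher without the third labelled CLP. Transmitter carriers gave 2 higher without the first labelled sham and 0 lower without the first labelled CLP, mitochondrial carriers 2 lower without the second labelled CLP, and nucleotide sugar carriers 5 higher without the third labelled CLP.

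**Figure D1:**
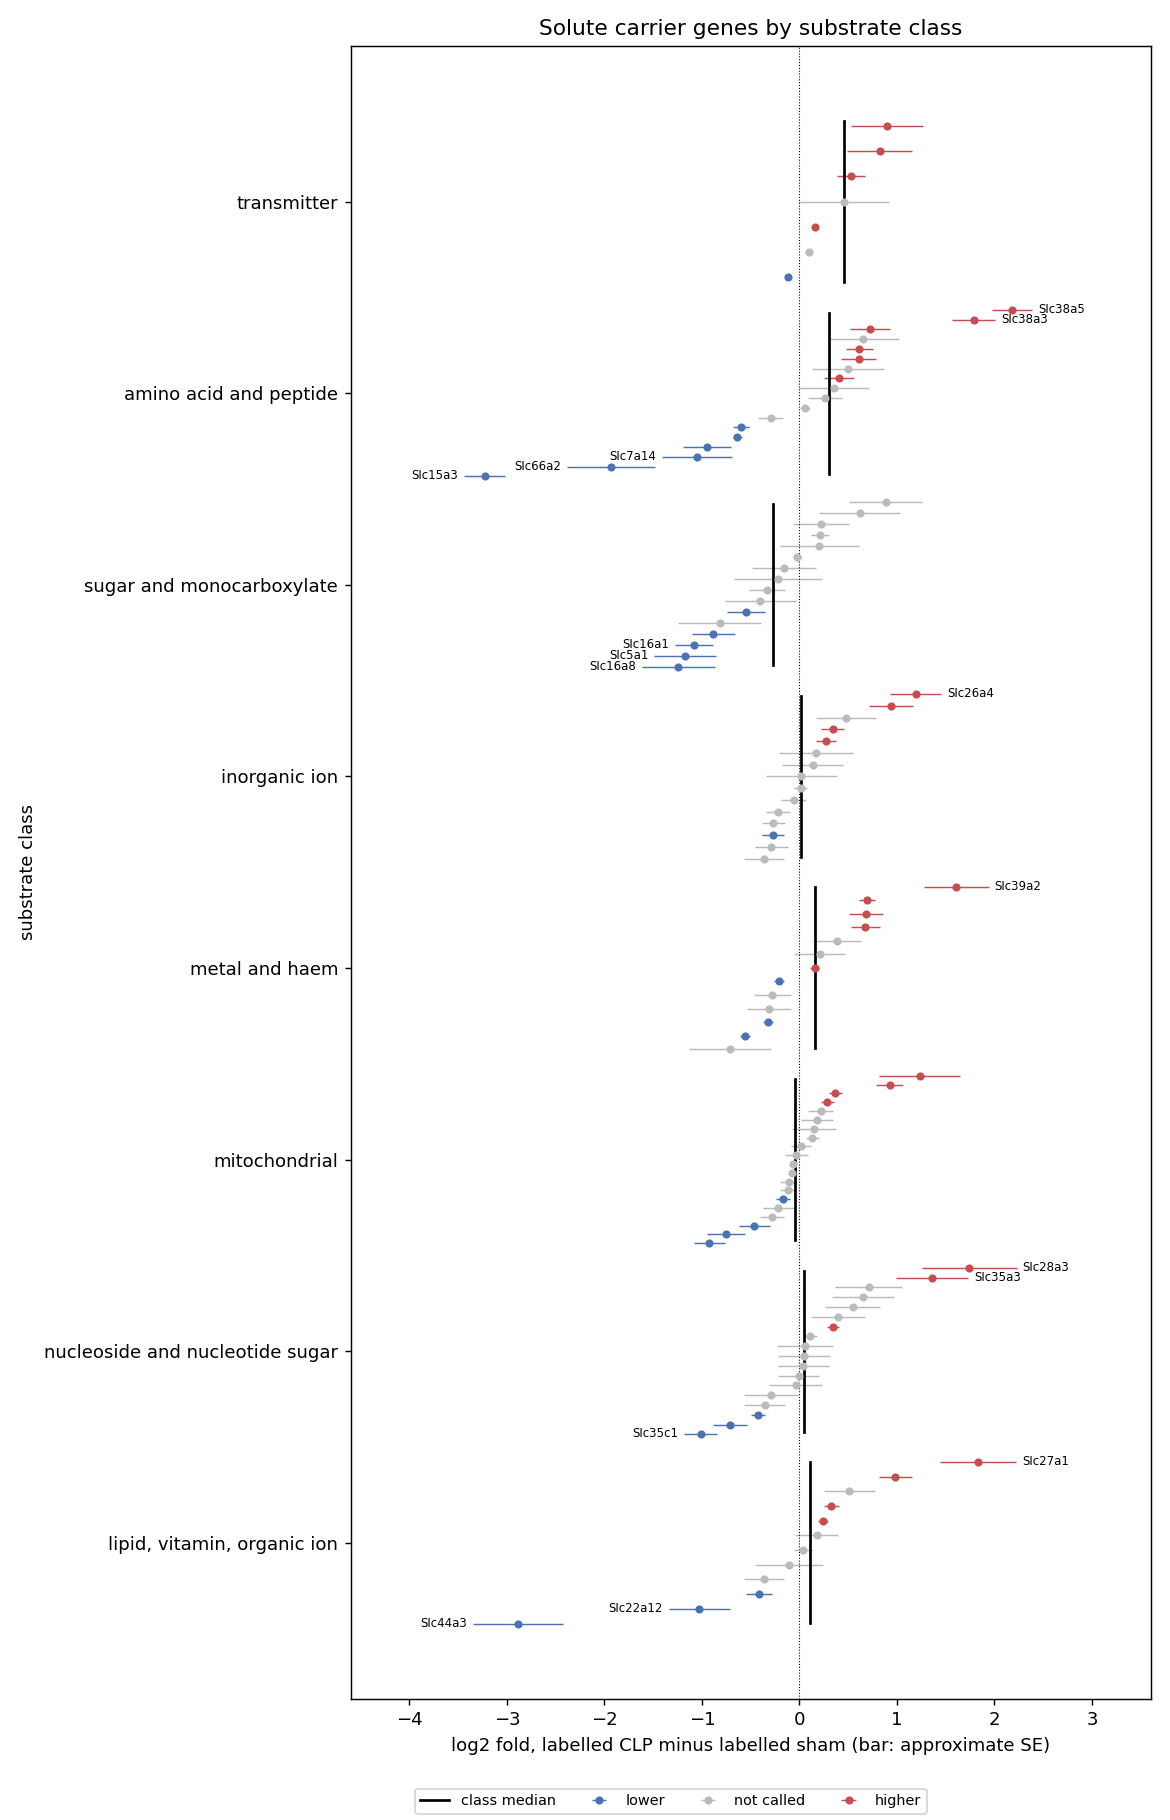
Log2 fold of each tested solute carrier gene between libraries labelled CLP and sham (x axis, 3 libraries a group), in rows by substrate class, with bars for the approximate SE and a black line for the class median. Red points were called higher, blue points lower and grey points were not called, and names mark most of the called genes over 2-fold. Slc15a3 lies farthest to the left and Slc38a5 farthest to the right.

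The promoter windows of a pair of members that moved over 2-fold in opposite directions are printed because both hold the palindrome CACGTG, the E-box core bound by several basic helix-loop-helix factors. They are the monocarboxylate carrier gene Slc16a1, lower in libraries labelled CLP, and the glutamine carrier gene Slc38a5, higher there. Each window runs 5′ to 3′ from 250 bases before to 50 after the start of the gene in the RefSeq annotation of GRCm38.p6, which is the reference assembly and not the genome of these mice, and capitals mark CACGTG.
Slc16a1 at chr3:104638414-104638713 on the + strand: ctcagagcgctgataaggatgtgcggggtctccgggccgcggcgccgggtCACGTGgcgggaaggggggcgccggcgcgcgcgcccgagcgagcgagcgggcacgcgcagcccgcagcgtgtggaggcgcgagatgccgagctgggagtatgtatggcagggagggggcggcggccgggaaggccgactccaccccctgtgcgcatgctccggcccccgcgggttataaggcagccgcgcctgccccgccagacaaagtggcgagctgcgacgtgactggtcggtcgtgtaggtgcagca
Slc38a5 at chrX:8271131-8271430 on the + strand: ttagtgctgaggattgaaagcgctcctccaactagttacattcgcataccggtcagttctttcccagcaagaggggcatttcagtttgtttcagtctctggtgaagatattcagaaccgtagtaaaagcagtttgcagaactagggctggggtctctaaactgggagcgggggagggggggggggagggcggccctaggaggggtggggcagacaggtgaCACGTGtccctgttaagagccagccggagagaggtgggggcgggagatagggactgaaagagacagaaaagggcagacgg
The first base of the match stands at position -200 in Slc16a1 and -30 in Slc38a5, counted from the start of the gene. CACGTG occurred in 16 of 98 members with a window (16.33%) and in 8.09% of 27025 genes with one, on either strand. The 27025 genes were taken without a minimum count, unlike the members, so the shares here and below compare unlike sets. A gene with several windows counted once if any of them matched, so it had more room for a match. Among the members with CACGTG, Slc29a1 had 8 windows and Slc27a1 had 3. Of the 17 called members over 2-fold, 13 had a window, and 5 of these held it: Slc16a1, Slc5a1 and Slc7a14, which were lower, and Slc38a5 and Slc27a1, which were higher. The interferon-stimulated response element occurred in 3 of the 98 members (3.06%) and 3.99% of the 27025 genes. TGACGTCA, the cyclic AMP element, occurred in 3 members (3.06%) and 2.03% of these genes, and TGACNNNGC, the antioxidant element, in 20 members (20.41%) and 13.99%. The NF-kappaB site occurred in 0 of 98 members and in 1.63% of the 27025 genes. A match to CACGTG can share bases with one to TGACGTCA or TGACNNNGC, but matches to the last pair cannot overlap each other. The matches are letters in a window, and binding was not measured.

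Among amino acid carriers, the called members of the Slc38 family were higher in libraries labelled CLP and those of the Slc7 family lower, and neither family was tested as a set. The Slc38 family carries glutamine and other small neutral amino acids with sodium, and 4 of its 5 members were called higher. Of all tested genes 23.7% were called higher. Slc38a5, a carrier of glutamine, serine and glycine, had 21, 16 and 26 counts in the libraries labelled sham and 96, 100 and 94 in those labelled CLP. These groups were far apart, 4.53-fold on the fitted scale (log2 fold 2.18 ± 0.20, adjusted p = 4.07e-09). Slc38a3, the glutamine carrier of astrocytes and vessels, had 21, 22 and 27 against 93, 89 and 63 counts, again without overlap (log2 fold 1.79 ± 0.22, adjusted p = 3.31e-07). Slc38a11 was higher by 0.73 ± 0.20 (log2, adjusted p = 0.00475) and Slc38a6 by 0.61 ± 0.14 (adjusted p = 0.000789). Slc38a1, a neuronal glutamine carrier, was not called at the level of the gene, with 78, 65 and 58 against 74, 87 and 83 counts (log2 fold 0.26 ± 0.17, adjusted p = 0.22). Slc38a2, the neutral amino acid carrier induced by amino acid shortage, stayed below the minimum at 3 to 16 counts per library.

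The Slc7 family of light subunits, which pair with the heavy subunit Slc3a2 or act alone, held 3 lower and 0 higher of 4 members. Of all tested genes 23.9% were called lower. Slc7a8, a light subunit for neutral amino acids, had 604, 570 and 514 counts with the sham label and 353, 367 and 406 with the CLP label, so the groups were well separated (log2 fold -0.60 ± 0.08, adjusted p = 1.94e-06). Slc7a6, a light subunit that exchanges cationic and neutral amino acids, had 51, 58 and 34 against 26, 24 and 25 counts (log2 fold -0.94 ± 0.24, adjusted p = 0.00254). Slc7a14, a lysosomal relative of the cationic amino acid carriers, was lower as well (-1.05 ± 0.36, adjusted p = 0.0183). Without the second library labelled CLP its log2 fold was -0.72 (adjusted p = 0.113), and it also lost the call without the first labelled sham or the third labelled CLP and with DESeq2 (adjusted p = 0.0639). Slc7a5, the large neutral amino acid carrier of the blood-brain barrier, had 1349, 1436 and 1365 against 1545, 1460 and 1361 counts, with overlapping groups (log2 fold 0.06 ± 0.06, adjusted p = 0.407). Its partner Slc3a2 had 176, 144 and 154 against 124, 134 and 133 counts, which did not overlap but missed the threshold (log2 fold -0.29 ± 0.13, adjusted p = 0.0626). Without the second library labelled sham Slc3a2 was called lower (log2 fold -0.37, adjusted p = 0.0329), as it was with all 9 libraries in 1 fit (adjusted p = 0.0428).

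Slc15a3 had the lowest log2 fold of all members. It encodes a lysosomal carrier of histidine and small peptides that is expressed in immune cells. Its counts were 263, 379 and 224 in the libraries labelled sham and 33, 32 and 28 in those labelled CLP, or 60.7 ± 16.4 against 6.51 ± 0.657 CPM (counts scaled to library size, mean ± SD, n = 3). Every sham-labelled library lay far above every CLP-labelled library, a 9.37-fold difference (log2 fold -3.23 ± 0.21, adjusted p = 8.21e-09). Slc1a4, a carrier of serine and other neutral amino acids, differed less but with little spread, 1953, 2070 and 2117 against 1358, 1272 and 1355 counts (log2 fold -0.64 ± 0.05, adjusted p = 4.71e-11). Slc66a2, a PQ-loop membrane protein, had 13, 27 and 14 against 3, 6 and 5 counts (log2 fold -1.93 ± 0.45, adjusted p = 0.000945). Other lysosomal amino acid carriers were higher with the CLP label: Slc66a1, an exporter of cationic amino acids, by 0.61 ± 0.18 (adjusted p = 0.00702) and Slc36a1, a proton-coupled exporter, by 0.40 ± 0.15 (adjusted p = 0.0343). Without the third library labelled sham the log2 folds were 0.40 for Slc66a1 (adjusted p = 0.0627) and 0.29 for Slc36a1 (adjusted p = 0.165). Slc36a1 also lost its call without the first sham-labelled or the first or the third CLP-labelled library, with DESeq2 and with no filter.

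In whole tissue, fewer cells of a type and less RNA per cell cannot be told apart, so marker genes are given beside the transporters. Of 6 tested microglia markers all 6 were higher with the CLP label, with summed levels of 439 to 570 CPM in libraries labelled sham and 770 to 834 in those labelled CLP, and P2ry12 had 0 counts throughout. Endothelial markers had 3 higher and 1 lower of 4 tested (300 to 341 against 433 to 458 CPM summed, Pecam1 and Emcn at 0). Astrocyte markers had 2 higher and 4 lower of 7 (851 to 883 against 1281 to 1322 CPM), and oligodendrocyte markers 6 higher and 0 lower of 7 (904 to 985 against 1346 to 1544 CPM). Pericyte markers had 2 higher and 0 lower of 3 (360 to 401 against 585 to 677 CPM, with Pdgfrb, Kcnj8 and Abcc9 at 0), and meningeal markers 3 and 1 of 9 (255 to 294 against 223 to 387 CPM, Bgn at 0). Choroid plexus markers had 1 higher and 0 lower of 6 (563 to 888 against 766 to 1528 CPM, Prlr at 0), and the single thalamus marker tested was higher. Genes with many counts weigh most in such a sum, so it does not describe most markers of a type. Gja1, an astrocyte marker, had a mean of 390 CPM with the sham label and 850 with the CLP label. Among endothelial markers Itm2a had 40.7 against 191 CPM, while Cldn5, the lower gene, had 156.6 against 75.85. Beside these counts, 23.7% of all tested genes were called higher and 23.9% lower. The part of these cell types in the transporter differences was not tested.

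**Figure D2:**
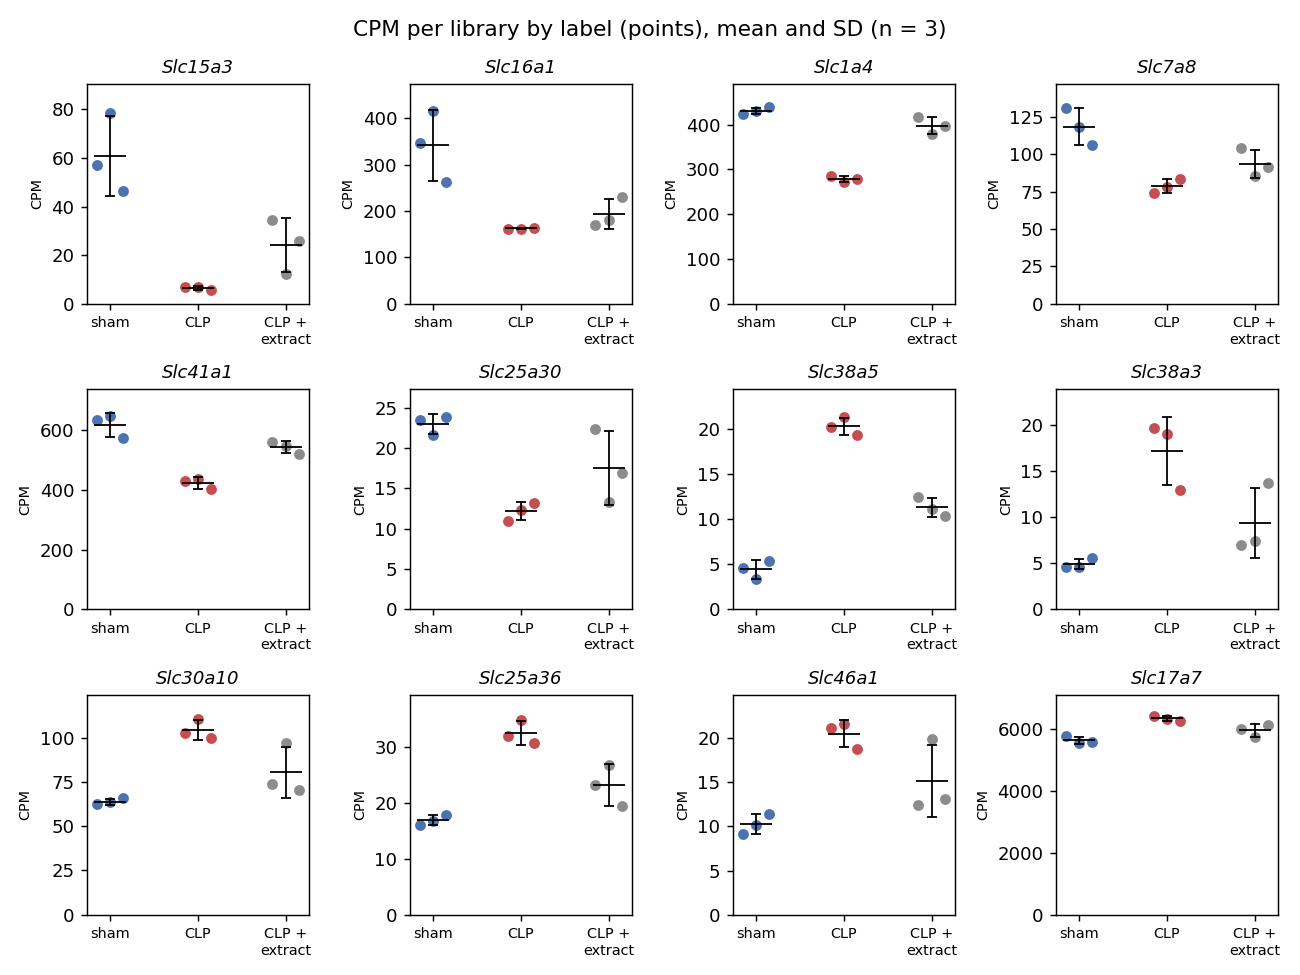
CPM (y axis, from 0) of 12 solute carrier genes in each library labelled sham, CLP and CLP plus extract (points), with the mean and SD of 3 libraries as bars. Slc15a3, Slc16a1, Slc1a4, Slc7a8, Slc41a1 and Slc25a30 lie lower with the CLP label, and Slc38a5, Slc38a3, Slc30a10, Slc25a36, Slc46a1 and Slc17a7 higher, without overlap between the sham and CLP labels.

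Carriers of monocarboxylates and glucose were lower where they were called. Slc16a1, which carries lactate, pyruvate and ketone bodies, had 1596, 2006 and 1264 counts in the libraries labelled sham and 768, 757 and 798 in those labelled CLP. The sham-labelled values spread widely but all lay above the CLP-labelled ones, a 2.12-fold difference (log2 fold -1.08 ± 0.20, adjusted p = 0.011). Without the first library labelled CLP the log2 fold was -1.07 and the adjusted p 0.051. Slc16a8, another monocarboxylate carrier, had 18, 19 and 15 against 7, 8 and 7 counts (log2 fold -1.24 ± 0.38, adjusted p = 0.00808, and 0.0555 with DESeq2). Slc16a14, a family member without an established substrate, was called lower although its groups overlapped, 90, 102 and 75 against 48, 53 and 84 counts (log2 fold -0.55 ± 0.19, adjusted p = 0.0227). It lost the call with DESeq2 and without any 1 of 4 libraries, the first and second of either label, with the highest adjusted p, 0.138, without the first labelled CLP. Emb, which encodes a chaperone subunit of monocarboxylate carriers, was lower too, with 993, 979 and 790 against 759, 573 and 588 counts (log2 fold -0.54 ± 0.16, adjusted p = 0.0398). Emb lost its call with the filter of 1 CPM and without the first or second library labelled sham or the second or the third labelled CLP (highest adjusted p 0.141). The other 3 partner genes tested were not called.

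Glucose and inositol carriers gave a mixed picture. Slc5a1, the sodium-glucose cotransporter, had 35, 20 and 30 counts with the sham label and 15, 12 and 11 with the CLP label, without overlap (log2 fold -1.17 ± 0.32, adjusted p = 0.00368). Slc2a10, a facilitative glucose carrier family member, had 46, 64 and 73 against 38, 24 and 38 counts (log2 fold -0.88 ± 0.22, adjusted p = 0.00197). Slc2a3, the neuronal glucose carrier, had only 11, 18 and 8 against 6, 19 and 7 counts in overlapping groups (log2 fold -0.22 ± 0.45, adjusted p = 0.717), and the direction turned when single libraries were left out. Slc2a13, the proton-coupled myo-inositol carrier, had the most counts of its class and was not called, 2343, 2585 and 2544 against 2377, 2468 and 2590 (log2 fold -0.02 ± 0.04, adjusted p = 0.704). Slc5a3, the sodium-coupled inositol carrier, had 678, 746 and 565 against 835, 764 and 732 counts (log2 fold 0.21 ± 0.10, adjusted p = 0.0861). Without the second library labelled sham Slc5a3 was called higher (log2 fold 0.29, adjusted p = 0.0157), as it was with no filter and with a replicate block. Mpc1 and Mpc2, the subunits of the mitochondrial pyruvate carrier that fall outside the symbol rule, were both higher with the CLP label (0.44 ± 0.14 and 0.46 ± 0.06 on the log2 scale, adjusted p = 0.0125 and 9.82e-07), and Mpc1 lost the call without the third library labelled sham (log2 fold 0.30, adjusted p = 0.0948).

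Transmitter carriers differed by small amounts where counts were high. Slc17a7, the vesicular glutamate carrier of most hippocampal excitatory neurons, had 26508, 26676 and 26920 counts in libraries labelled sham and 30358, 29600 and 30405 in those labelled CLP. The groups did not overlap, yet the difference was 1.12-fold (log2 fold 0.16 ± 0.03, adjusted p = 8.32e-05). Slc1a1, the neuronal glutamate and cysteine carrier, had 3465, 3618 and 3828 against 3809, 3911 and 4061 counts, with a single sham-labelled value above the lowest CLP-labelled count before scaling (log2 fold 0.10 ± 0.04, adjusted p = 0.053). Slc1a1 was called higher without the third library labelled sham (0.0369), without the first labelled CLP (0.0296), with limma-voom, with all 9 libraries and among genes with 1 transcript. Slc18a2, the vesicular monoamine carrier, had 74, 81 and 95 against 131, 119 and 115 counts (log2 fold 0.53 ± 0.14, adjusted p = 0.00385). Excitatory neuron markers had 3 higher and 1 lower of 7 tested, with 4961 to 5073 CPM summed in libraries labelled sham and 5465 to 5806 in those labelled CLP and Camk2a at 0 counts, and interneuron markers had 2 higher and 0 lower of 3 tested (630 to 684 against 693 to 775 CPM, Vip at 0). Called higher were 23.7% of all tested genes and called lower 23.9%, and genes with many counts weigh most in these sums. The part of these neurons in the transmitter carrier differences was not tested.

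The transmitter carriers with few counts were near the threshold. Slc17a8, the vesicular glutamate carrier of some interneurons and serotonergic fibres, had 17, 11 and 16 against 39, 19 and 21 counts (log2 fold 0.82 ± 0.33, adjusted p = 0.0448). It fell short of the threshold without any 1 of the sham-labelled libraries or without the first labelled CLP, in which case its log2 fold was 0.44 (adjusted p = 0.358), and with DESeq2, limma-voom or no filter. Slc6a7, the brain proline carrier, had 10, 11 and 7 against 15, 23 and 15 counts (log2 fold 0.90 ± 0.37, adjusted p = 0.0498). That call was lost in 11 of 13 alternatives, among them without any 1 sham-labelled library or the first or second labelled CLP (0.237, the highest). Slc17a6, the vesicular glutamate carrier of thalamic neurons, overlapped with 6, 20 and 5 against 20, 9 and 14 counts (log2 fold 0.45 ± 0.47, adjusted p = 0.448), and without the second library labelled sham its log2 fold was 1.33 (adjusted p = 0.0453). Slc32a1, the vesicular GABA carrier, stayed below the minimum at 2 to 5 counts per library. Among genes that work with vesicular carriers, the vesicular proton pump had 2 higher and 2 lower of 12 tested subunits. The shares over all tested genes were 23.7% higher and 23.9% lower.

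Carriers of manganese and synaptic zinc were higher in the libraries labelled CLP, a magnesium carrier was lower, and members of the haem carrier families and zinc importers were called in both directions. Slc30a10, a manganese exporter, had 287, 306 and 317 counts with the sham label and 485, 518 and 485 with the CLP label, in tight groups without overlap (log2 fold 0.69 ± 0.08, adjusted p = 1.21e-07). Slc30a3, which loads zinc into synaptic vesicles, had 53, 61 and 46 against 90, 81 and 89 counts (log2 fold 0.68 ± 0.17, adjusted p = 0.00192). The zinc importer Slc39a12 of astrocytes had 66, 105 and 95 against 144, 141 and 143 counts (log2 fold 0.67 ± 0.15, adjusted p = 0.000569). Its relative Slc39a2 had few counts but no overlap, 8, 11 and 8 against 33, 21 and 30 (log2 fold 1.61 ± 0.33, adjusted p = 0.000309). Slc48a1, which moves haem out of endolysosomes, was higher by 0.16 ± 0.05 (adjusted p = 0.00679, and 0.0573 without the second library labelled sham). Slc41a1, a magnesium carrier and the metal carrier with the most counts, was lower with 2914, 3114 and 2760 against 2039, 2047 and 1951 counts, 1.47-fold and without overlap (log2 fold -0.56 ± 0.05, adjusted p = 2.1e-09). Slc49a4, a lysosomal member of the haem carrier family, was lower by a log2 fold of -0.32 ± 0.05 (adjusted p = 7.8e-06), and the zinc importer Slc39a6 by -0.21 ± 0.05 (adjusted p = 0.00132). The summed metal class had 1874 to 1913 CPM in libraries labelled sham and 1662 to 1733 in those labelled CLP, so its sum was lower although more of its genes were higher. Slc39a8, a zinc and manganese importer, stayed below the minimum at 1 to 7 counts per library.

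Of the carriers of chloride, bicarbonate, calcium and phosphate, 5 genes were called. Slc26a4, the iodide, chloride and bicarbonate exchanger pendrin, had 13, 20 and 18 counts with the sham label and 37, 43 and 38 with the CLP label (log2 fold 1.19 ± 0.26, adjusted p = 0.000531). Slc4a3, a chloride-bicarbonate exchanger of neurons, had 24, 25 and 21 against 46, 45 and 45 counts, nearly the same value in each library of the CLP label (log2 fold 0.94 ± 0.23, adjusted p = 0.00156). Slc12a5, the potassium-chloride cotransporter that keeps neuronal chloride low, had 136, 142 and 173 against 174, 189 and 214 counts (log2 fold 0.34 ± 0.12, adjusted p = 0.0235). That call was lost with DESeq2 and without the first or second library labelled sham or the third labelled CLP (0.101, the highest). Slc8a2, a sodium-calcium exchanger, had 206, 205 and 204 against 242, 253 and 256 counts (log2 fold 0.27 ± 0.10, adjusted p = 0.0277) and lost the call with DESeq2 and without the second or the third library of either label (highest adjusted p with DESeq2, 0.0864). Slc20a1, a sodium-phosphate cotransporter, was called lower with overlapping groups, 222, 297 and 247 against 229, 209 and 202 counts (log2 fold -0.27 ± 0.11, adjusted p = 0.0436). Its log2 fold was -0.17 without the second library labelled sham (adjusted p = 0.261), and it also lost the call without the second or the third labelled CLP, with a replicate block, with DESeq2 and with limma-voom. Slc9a2, a sodium-proton exchanger and the ion carrier with the most counts, was not called (685, 693 and 700 against 757, 688 and 672). Of 5 tested subunits of the sodium-potassium pump, which builds the gradient many carriers use, 2 were higher and 2 lower. Over all tested genes the shares were 23.7% and 23.9%. The called pump subunits included Atp1b1 (0.12 ± 0.03, adjusted p = 0.00131) and Fxyd7 (0.30 ± 0.08, adjusted p = 0.00268), higher, and Atp1b2 (-0.54 ± 0.15, adjusted p = 0.00517, and 0.0509 without the third library labelled CLP), lower.

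**Figure D3:**
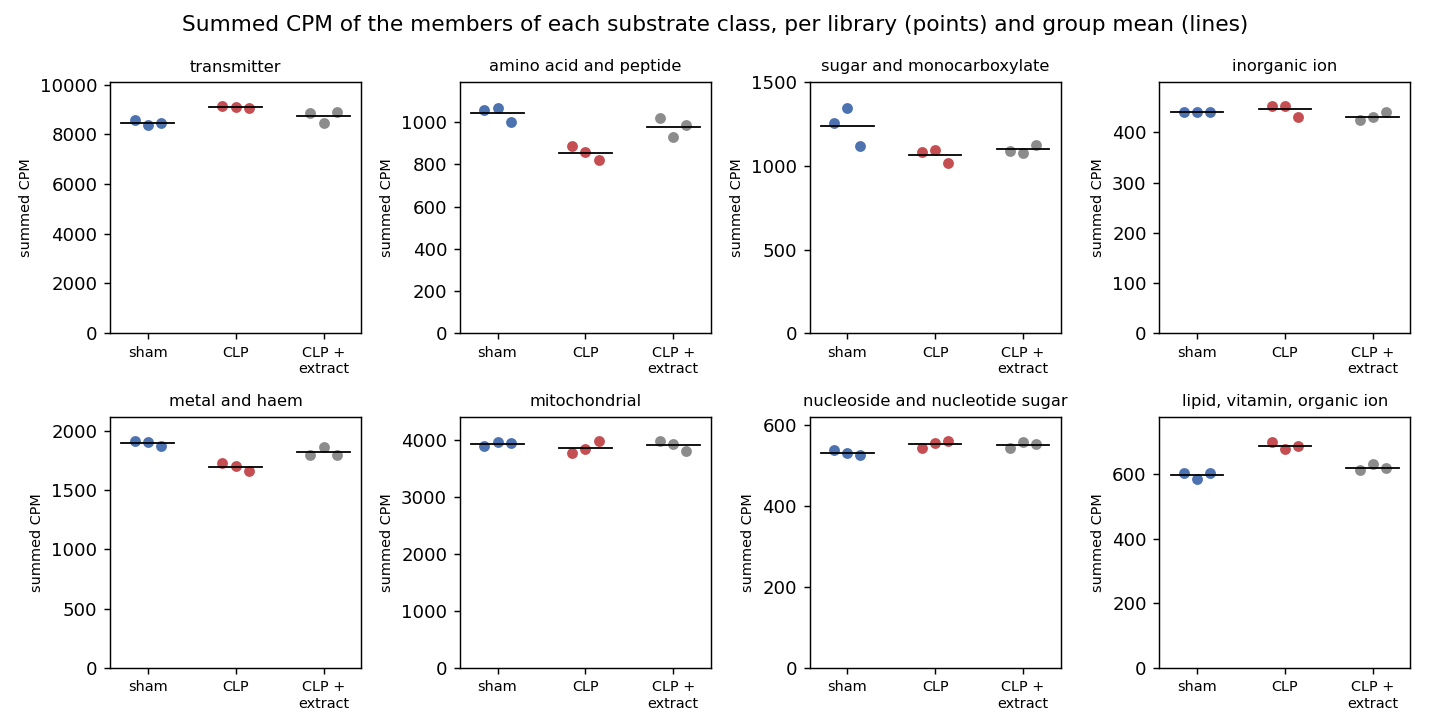
Summed CPM of the members of each of 8 substrate classes (y axis, from 0) in every library labelled sham, CLP and CLP plus extract (points), with group means as lines. The amino acid, metal and sugar and monocarboxylate sums lie lower with the CLP label than with the sham label, and the transmitter, nucleotide sugar and organic sums higher, while the mitochondrial and inorganic ion sums overlap. Genes with many counts, such as Slc1a4, Slc41a1, Slc16a1 and Slc17a7, weigh most in a sum, so it does not describe most genes of a class.

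Mitochondrial carriers of the Slc25 family split into higher and lower genes, and those with the most counts were not called. Slc25a4, the ADP/ATP carrier of heart, muscle and brain, had 9836, 10456 and 10525 counts in the libraries labelled sham and 9444, 9767 and 10631 in those labelled CLP (log2 fold -0.06 ± 0.04, adjusted p = 0.161). Without the third library labelled CLP Slc25a4 was called lower (log2 fold -0.09, adjusted p = 0.0226). Slc25a5, its widely expressed relative, had 3792, 4241 and 4013 against 3743, 3752 and 4063 counts (log2 fold -0.07 ± 0.04, adjusted p = 0.135). Both pairs of groups overlapped. Slc25a36, a pyrimidine nucleotide carrier, had 74, 81 and 86 against 151, 163 and 149 counts, 1.9-fold and without overlap (log2 fold 0.93 ± 0.14, adjusted p = 4.42e-06). Slc25a33, another pyrimidine nucleotide carrier, was lower by a log2 fold of only -0.17 ± 0.07 (adjusted p = 0.048), a call lost in 12 of 14 alternatives, among them without the first or the third library labelled sham or any 1 labelled CLP (highest adjusted p 0.214). Slc25a1, the citrate carrier that supplies cytosolic acetyl-CoA, had 516, 537 and 535 against 644, 657 and 655 counts (log2 fold 0.28 ± 0.07, adjusted p = 0.000766). Slc25a42, a coenzyme A carrier, was higher as well (log2 fold 0.37 ± 0.07, adjusted p = 0.000111).

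The lower mitochondrial genes included Slc25a30, whose protein belongs to the uncoupling protein-like carriers. It had 108, 104 and 115 counts with the sham label and 52, 58 and 64 with the CLP label (log2 fold -0.93 ± 0.16, adjusted p = 3.07e-05). Its groups did not overlap. Slc25a24, a calcium-sensitive ATP-magnesium/phosphate carrier, had 89, 64 and 105 against 44, 52 and 59 counts (log2 fold -0.75 ± 0.19, adjusted p = 0.0025). Slc25a23, of the same kind, had 92, 140 and 105 against 86, 76 and 85 counts (log2 fold -0.46 ± 0.16, adjusted p = 0.0185). Slc25a23 had a log2 fold of -0.29 without the second library labelled sham (adjusted p = 0.171) and lost its call without the second labelled CLP (adjusted p = 0.075) and with DESeq2. Outside the symbol rule, the mitochondrial serine carrier Sfxn1 had 31, 29 and 17 against 11, 17 and 10 counts and was lower (log2 fold -1.03 ± 0.34, adjusted p = 0.0141) with overlapping groups. The alternatives were not examined for Sfxn1.

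Nucleotide sugar carriers of the Golgi and endoplasmic reticulum feed glycan synthesis, and their genes moved either way. Slc35c1, the GDP-fucose carrier, had 91, 113 and 106 counts with the sham label and 55, 57 and 43 with the CLP label, without overlap (log2 fold -1.01 ± 0.17, adjusted p = 2.69e-05). Slc35a1, the CMP-sialic acid carrier, had 93, 92 and 82 against 64, 44 and 57 counts (log2 fold -0.71 ± 0.17, adjusted p = 0.00166). Slc35a3, the UDP-N-acetylglucosamine carrier, ran the other way with 7, 6 and 13 against 30, 18 and 20 counts (log2 fold 1.36 ± 0.37, adjusted p = 0.00402). Slc35f1 and Slc35e4, family members without an established substrate, were called higher (0.34 ± 0.06, adjusted p = 5.83e-05) and lower (-0.42 ± 0.07, adjusted p = 3.02e-05). Slc28a3, a concentrative nucleoside carrier, had 11, 5 and 5 against 42, 16 and 14 counts, with 1 CLP-labelled library far above the other two (log2 fold 1.74 ± 0.49, adjusted p = 0.00677). Without that library, the first labelled CLP, the log2 fold was 1.08 (adjusted p = 0.0833). Slc29a1, the equilibrative adenosine carrier, had 12, 15 and 11 against 23, 26 and 14 counts and was not called (log2 fold 0.71 ± 0.34, adjusted p = 0.091), but was without the third library labelled CLP (0.95, adjusted p = 0.0304).

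Carriers of folate and most fatty acids that were called lay higher in the libraries labelled CLP. Slc27a1, a fatty acid transport protein, had 4, 4 and 14 counts with the sham label and 23, 29 and 28 with the CLP label (log2 fold 1.83 ± 0.39, adjusted p = 0.000448). Slc27a4, of the same family, had 1513, 1510 and 1641 against 1809, 1802 and 1971 counts, a smaller difference in tight groups (log2 fold 0.24 ± 0.05, adjusted p = 0.000228). Slc27a2, the peroxisomal very long chain acyl-CoA synthetase of the family, was lower with 140, 140 and 154 against 103, 112 and 114 counts (log2 fold -0.41 ± 0.13, adjusted p = 0.00998). Slc46a1, the proton-coupled folate carrier, had 42, 49 and 55 against 100, 101 and 91 counts, all CLP-labelled values above all sham-labelled ones (log2 fold 0.98 ± 0.17, adjusted p = 3.57e-05). Slc44a3, of the choline carrier-like family, was lower with 42, 49 and 21 against 10, 3 and 2 counts (log2 fold -2.89 ± 0.46, adjusted p = 6.03e-05). Slc22a12, a urate carrier, had 37, 23 and 27 against 15, 18 and 10 counts (log2 fold -1.03 ± 0.31, adjusted p = 0.00884) and lost the call without the first library labelled sham (0.081) or the third labelled CLP (0.0523). Among organic anion carriers outside the symbol rule, Slco2b1 had 5, 7 and 5 against 17, 27 and 29 counts (log2 fold 2.06 ± 0.39, adjusted p = 9.65e-05) and Slco3a1 223, 248 and 260 against 307, 337 and 355 (log2 fold 0.43 ± 0.09, adjusted p = 0.000436). Of 12 tested transporters outside the rule 6 were higher and 2 lower, beside 23.7% and 23.9% of all tested genes.

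Many solute carriers have several RefSeq transcripts, and the count of a gene can hide opposite movements of its transcripts. Of the members 45 had 1 transcript and 75 had several. Members with 1 transcript were 11 higher and 15 lower of 45 (57.8% called), and members with several were 19 higher and 11 lower of 74 tested (40.5%). Of all tested genes 23.7% were called higher and 23.9% lower. These shares were not split by transcript number, so no reading is made of the difference between the 2 sets of members. The following genes were chosen after their transcript counts were seen, and no test was made on transcripts. Transcripts with a mean under 5 counts over the 6 libraries are not shown. The Slc38a1 transcript with the most counts had 51, 38 and 34 counts with the sham label and 25, 16 and 29 with the CLP label. The next transcript of Slc38a1 had 20, 16 and 16 against 36, 58 and 34, so the pair moved in opposite directions under a gene count that was not called. In Slc44a1, a choline carrier that was not called as a gene (log2 fold 0.03 ± 0.09, adjusted p = 0.791), the second transcript had 36, 47 and 39 against 18, 14 and 15 counts (log2 ratio -1.35), while the first had a log2 ratio of 0.19. In Slc4a3 the second transcript had 4, 6 and 7 against 25, 21 and 20 counts (log2 ratio 1.99), and the first a log2 ratio of 0.35. Of the 3 transcripts of Slc25a36 above that minimum, the first and the third had log2 ratios of 1.24 and 1.0 and the second -0.05. Of the 3 of Slc38a6, the first had a log2 ratio of 1.0 and the other two -0.15 and -0.34. How reads shared by transcripts were divided is not given in the sources used here, so these splits are the deposited estimates.

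**Figure D4:**
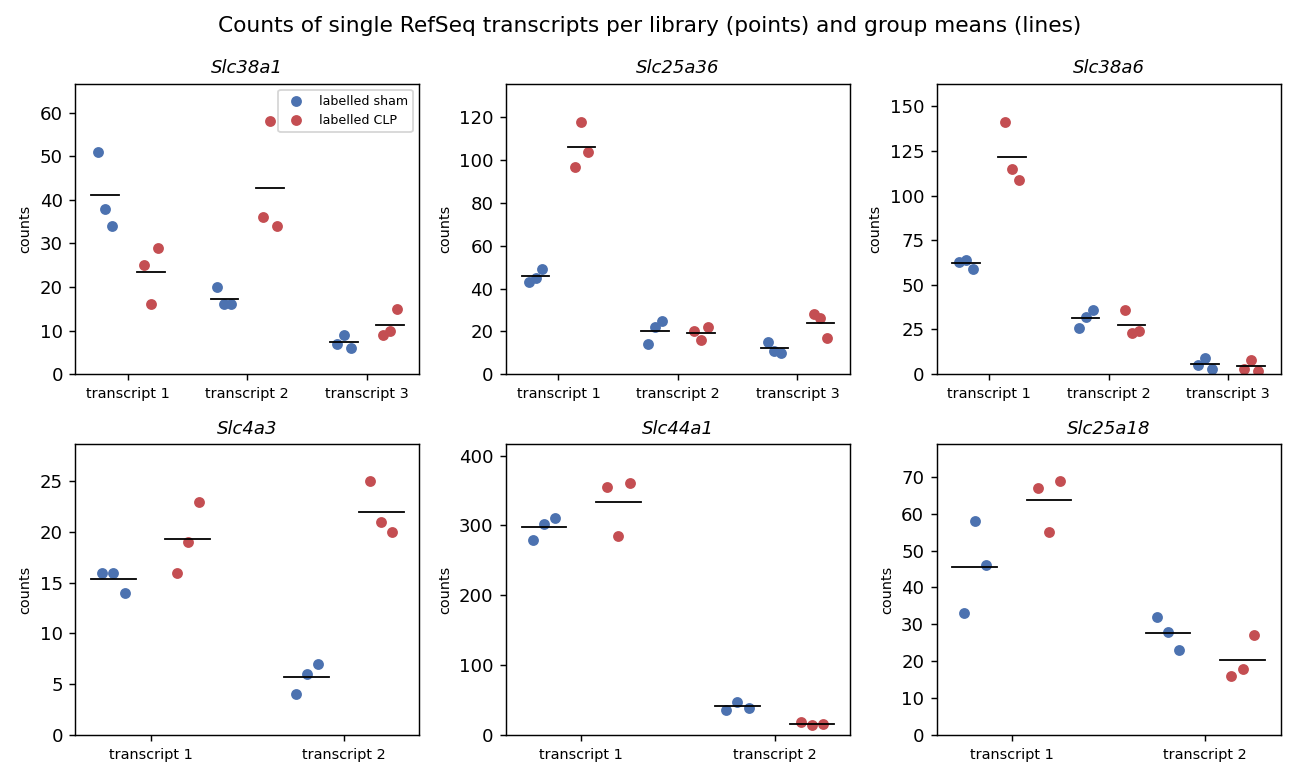
Counts (y axis, from 0) of single RefSeq transcripts of 6 solute carrier genes in the 3 libraries labelled sham and the 3 labelled CLP (points), with group means as lines, and transcripts in order of their total counts. In Slc38a1 the first transcript lies lower and the second higher with the CLP label.

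Some carriers of importance in the brain could not be described because their counts were near 0 in every library. Slc6a8 (creatine), Slc4a4 (sodium bicarbonate), Slc8a1 (sodium-calcium exchange) and Slc22a8 (organic anions) had 0 counts throughout. Slc12a2, the chloride importer that opposes Slc12a5, had 3 to 9 counts, and Slc6a6 (taurine) and Slc6a13 (GABA of meninges) had 0 to 2. In all, 235 genes of the pattern were under the minimum, 94 of them with 0 counts in the libraries labelled sham and CLP. Membership differed with the number of transcripts: 62.5% of 72 genes with 1 transcript but only 26.5% of 283 genes with several were members. Why these shares differ was not tested, and low counts here were not taken to show that a gene is not expressed.

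For the libraries labelled CLP plus extract, values are set beside those labelled CLP without further reading, given the unusual spread described above. The median spread of the members was narrow. Yet the dispersion common to all genes, a measure of spread beyond counting, was 0.00779 in this fit. It was 0.00443 in the fit of CLP label against sham label. Of 114 members tested 3 were higher and 5 lower (7.02%, beside 8.34% of 7986 genes called in either direction, 5.43% higher and 2.91% lower). The groups did not overlap in 39 members (34.2%, beside 33.6% of all genes tested), and 1 member each was called and over 2-fold higher or lower (beside 3.41% called and over 2-fold either way). Both comparisons share the CLP-labelled libraries. Slc15a3 had 163, 58 and 123 counts with the extract label (log2 fold extract label minus CLP label 1.90 ± 0.38, adjusted p = 0.0259), between the other groups. Slc1a4 had 1980, 1799 and 1879 counts (0.52 ± 0.05, adjusted p = 0.000998) and Slc41a1 2653, 2584 and 2466 (0.36 ± 0.05, adjusted p = 0.00418), both above the CLP label. Lower than with the CLP label were Slc38a5 at 59, 53 and 49 counts (-0.83 ± 0.12, adjusted p = 0.00588), Slc27a1 at 13, 9 and 13 (-1.17 ± 0.21, adjusted p = 0.0172) and Slc26a4 at 27, 21 and 24 (-0.70 ± 0.16, adjusted p = 0.0364). Slc27a4 had 1575, 1616 and 1575 counts (-0.21 ± 0.04, adjusted p = 0.0169). Slc35b2, the carrier of the sulfate donor PAPS, had 14, 11 and 15 counts with the extract label, under all of its 29, 21 and 26 with the sham label and 29, 26 and 24 with the CLP label (-0.96 ± 0.20, adjusted p = 0.0255). Leaving out any 1 CLP-labelled library gave 1 to 2 members lower in place of 5, and leaving out the first extract-labelled library gave 3. Slc15a3, Slc27a4, Slc35b2 and Slc26a4 each lost the call without any 1 of the CLP-labelled libraries, with highest adjusted p of 0.144, 0.0742, 0.0919 and 0.122, and Slc27a1 without the second or the third (0.0818 and 0.0729). Extract-labelled libraries decided calls too: Slc15a3 lost it without the third, Slc35b2 without the first or second and Slc26a4 without any 1 of the 3. With DESeq2 the adjusted p was 0.352 for Slc26a4, 0.273 for Slc35b2 and 0.142 for Slc27a1. Slc26a4 also lost the call with a replicate block (adjusted p = 0.0698) and with no filter (0.0622), and Slc15a3 with limma-voom (0.0585) and with no filter (0.102).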

How the data were processed

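The 9 hippocampus libraries were analysed from the table of whole-number counts per RefSeq transcript that the authors deposited. Per the submitters' processing notes, fastp and Salmon were used; no version, setting or index is named in the labels. All 120312 transcripts were matched to gene symbols through the GRCm38.p6 RefSeq table and summed to 38911 genes. After edgeR's filterByExpr and TMM scaling (factors 0.983 to 1.021), edgeR 4.0.16's robust quasi-likelihood F test was fitted to the 6 libraries labelled sham and CLP, or the 6 labelled CLP and CLP plus extract. Benjamini-Hochberg adjustment covered every tested gene. The approximate SE is |log2 fold| over the root of F. CPM uses TMM factors from all 9 libraries. Substrate classes follow the family number, with single genes moved by hand.

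Named genes were, per class, at most 6 called genes from either end of the log2 folds and the member with the most counts, plus a fixed set of well-known carriers and, of other lists, at most 4 genes with the smallest p. A few genes that this rule names are not reported here. Members and lists were chosen with earlier results of these data known. Genes in the transcript and promoter paragraphs, and those called with the extract label, were chosen after values were seen. The naming rule did not name Sfxn1 or the Slc38 and Slc7 families. Alternatives were DESeq2 1.42.0 (size factors, Wald test), limma-voom 3.58.1, 2 other filters, all 9 libraries in 1 fit, a replicate block, genes with 1 transcript and each library left out. In simulated counts for CLP label against sham label, 77% of 100 genes changed 2-fold and 100% of 100 changed 4-fold were recovered. There were 7 false calls. For extract label against CLP label 86.9% of 99 and 100% of 100 were recovered, with 9 false calls. The simulation gave every gene the same dispersion in both comparisons, so its spread does not follow that of single genes. The fitted common dispersions differed, 0.00443 for CLP label against sham label and 0.00779 for extract label against CLP label. The shares recovered describe the simulated counts alone and give no error rate for the calls reported here. Summed over genes with at least 10 counts in a pair, replicates differed by more than counting noise (chi-square per degree of freedom 1.82 to 4.46 within the sham and CLP labels and 4.65 to 5.69 within the extract label). In the extract label the median variance over mean of the members was nonetheless 0.424, below the 0.693 that counting alone gives, and why the 2 measures differ was not tested. Software was R 4.3.3, Python 3.11.15, numpy 2.4.6, pandas 2.3.3 and matplotlib 3.10.9.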

Additional observations from a re-analysis of the deposited data

How the results depend on the processing

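With a replicate block the members had 30 higher and 25 lower (CLP label against sham label), and 3 higher and 6 lower (extract label against CLP label). Same-numbered libraries did not deviate together (correlations -0.018 to 0.029), so the numbers were not taken as pairs. Leaving out 1 library gave 26 to 32 higher and 22 to 27 lower for the CLP label, and 2 to 4 higher and 1 to 6 lower for the extract label. In a fit of genes with 1 RefSeq transcript alone, 13 members were higher and 14 lower with the CLP label. Only 45 members were tested there, and the same 45 had 11 higher and 15 lower in the reported fit. For the extract label the numbers moved to 5 higher and 9 lower with all 9 libraries in 1 fit and to 2 lower with DESeq2. The cause was not tested. Among genes with 1 transcript 2 were lower, as many as these 45 members had in the reported fit. Directions turned in 3 uncalled genes (CLP label against sham label). Slc2a13 had a log2 fold of 0.007 among genes with 1 transcript and -0.042 to 0.015 with 1 library left out. Slc2a3 ran from -0.927 to 0.134 with 1 library left out (0.072 without the first and 0.026 without the third labelled CLP), and Slc9a2 from -0.034 to 0.064 (-0.005 without the second labelled sham). Over the named genes and alternatives, 1046 values kept direction and side of the threshold, 124 lost the call, 13 gained it and 7 turned. At 4626519 to 4895474 counts per library, genes of few counts could not be tested.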
